A study of Mus musculus with 2 samples.

Results

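The semaphorin, plexin, Slit, Robo, netrin and Unc5 genes were followed across the cell classes of iWAT, the inguinal depot of white fat under the skin of the mouse. The members of each family were taken by gene symbol alone, and 43 of the 31053 genes in the count tables matched: 20 semaphorins, 9 plexins, 3 Slit, 4 Robo, 3 netrin and 4 Unc5 genes. Single-nucleus RNA-Seq (snRNA-Seq) was performed with 10x Genomics 3′ v3.1 chemistry on nuclei of iWAT taken without the lymph node from Western diet-fed male mice. There was 1 library with the genotype Lexis WT and 1 with the genotype Lexis KO, each made from the tissue of 3 mice pooled. The Lexis gene makes a long noncoding RNA, and the study asked how its loss in fat bears on the cells of the depot. The methods name a C57BL/6 background and an adipose deletion of a floxed Lexis allele by a Cre driven from the adiponectin promoter, with floxed littermates lacking Cre as controls, so only adipocytes of the Lexis KO group were meant to lose the gene. The study gives an age range for most of its experiments but none for these mice in particular.

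Semaphorins are secreted or membrane-bound ligands, and plexins are their receptors, joined by neuropilins as co-receptors for most secreted semaphorins. Slit proteins bind Robo receptors, and netrins bind Unc5 and Dcc family receptors. These families were first described in axon guidance and also act in vessel growth, immune cell traffic and tissue patterning, where a ligand made by one cell steers or repels a neighbour that carries the receptor.

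After filtering, 3503 nuclei with a median of 1195 unique molecular identifiers (UMIs, tags that count captured molecules) were kept from the WT-labelled library, and 2852 nuclei with a median of 3879 UMIs from the KO-labelled library. The deposited file names carry the opposite genotype to the labels for both libraries, and Lexis was not analysed here, so the labels were not checked against it and each direction below rests on them. Among genes of thermogenic fat, chosen after their values were seen, the log2 ratio of CPM in adipocytes (labelled KO over labelled WT) was 2.08 for Cidea, -0.72 for Adrb3 and -1.61 for Ucp1, which does not settle them. The 2 libraries shared 10 cell barcodes among kept nuclei. Classes were named from marker genes, and all 10 adipocyte markers had UMIs in the adipocyte nuclei of both libraries, where they summed to 13400 and 14000 CPM (UMIs of a gene for every 1000000 UMIs summed over a class) against at most 3060 in any other class. The same markers named the class, so these sums are no separate check, and all 10 also had UMIs in ASPCs of both libraries. The WT-labelled and KO-labelled libraries held 418 and 895 adipocyte, 300 and 788 ASPC (adipogenic stem and precursor cells and fibroblasts), 330 and 815 myeloid, 2017 and 103 lymphocyte, and 92 and 122 endothelial nuclei. Lymphoid stroma (152 nuclei, with Ccl19 and Ccl21a among its leading genes) was found in the WT-labelled library and myocytes (52 nuclei) in the KO-labelled library. Lymphocytes were 57.6% of nuclei in the WT-labelled library and 3.61% in the KO-labelled library. Whether lymph node tissue entered the WT-labelled library was not tested, nor was its part in the ratios between the libraries. Most nuclei of a class lay in different clusters in the 2 libraries: adipocytes in cluster 4 (labelled WT) and cluster 1 (labelled KO), ASPCs in cluster 8 and in clusters 5 and 6, and myeloid nuclei in cluster 7 and in clusters 3 and 9, while endothelial nuclei of both shared cluster 10. There is no replicate of either genotype, no test was made, and all intervals are exact 95% intervals that cover counting error only, not the spread between mice.

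Of the 43 genes, 35 had at least 50 UMIs over both libraries. The other 8 were Ntn5, Plxnb1, Plxnb3, Robo3, Sema4f, Sema4g, Sema5b and Unc5d. In 33 genes, each library held at least 20 UMIs, and the class with the highest CPM, here called the lead and taken only among named classes of at least 50 nuclei, was compared between the libraries. It was the same class in 20 of the 33 genes. Over all genes that met the same minimum, 46.3% of 12607 had the same leading class. When only the 5 classes with at least 50 nuclei in both libraries were compared, 24 of the 33 genes led in the same class, against 56.1% of all genes. Endothelial nuclei led for 10 of the 33 genes in both libraries (7.24% of all genes), ASPCs for 5 (6.04%), myeloid nuclei for 2 (9.18%), lymphocytes for 2 (15.4%) and adipocytes for 1 (8.41%). In 14 of the 20 genes the lead over the next class was larger than counting error in both libraries. The share of all genes with such a lead was not taken, so the 14 are not read as many or few.

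**Figure D1:**
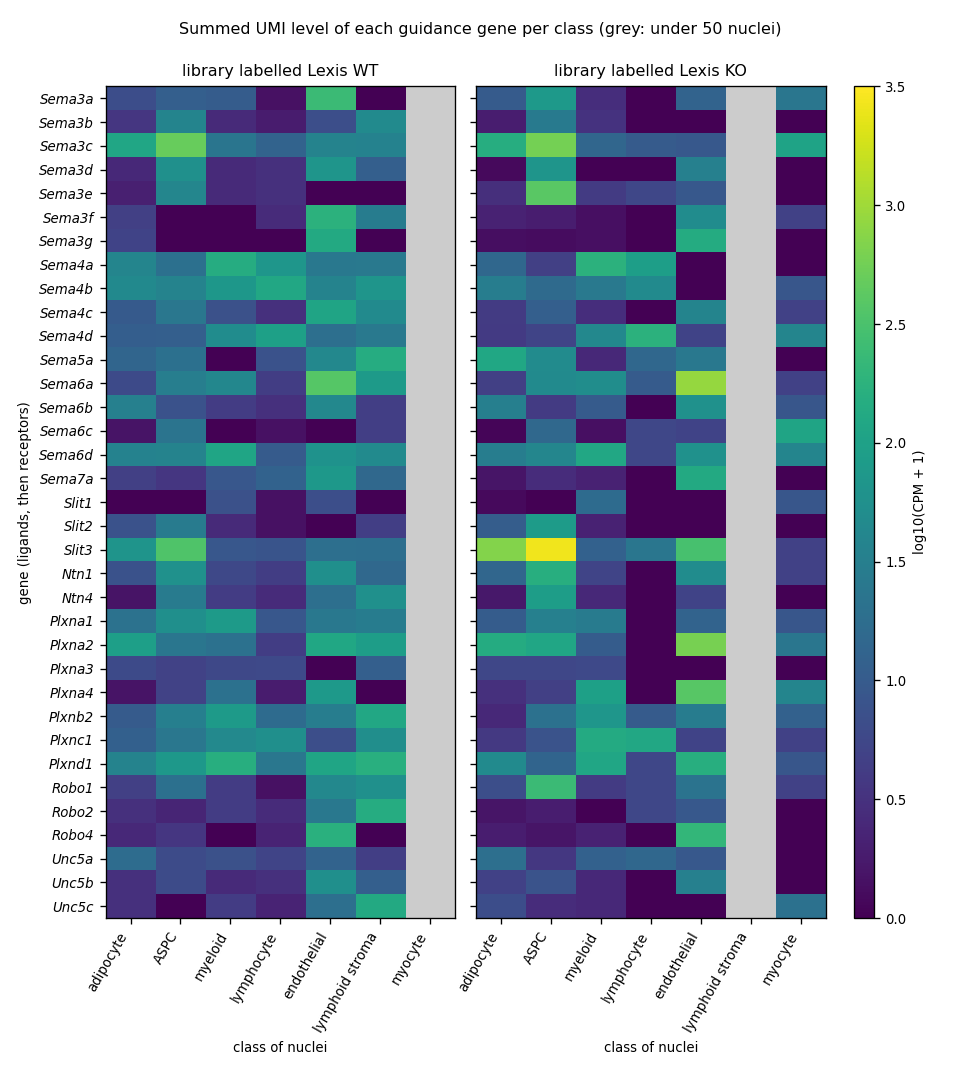
Each row is 1 of the 35 genes with at least 50 UMIs, ligands above receptors, each column a class of nuclei, and the colour gives log10(CPM + 1) of the summed UMIs in the WT-labelled library (left) and Lexis KO (right). The endothelial column is the brightest for Sema3g, Sema6a and Robo4 in both libraries, the ASPC column for Sema3c, Sema3e, Slit2 and Slit3, and grey marks a class with fewer than 50 nuclei in that library.

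Among the secreted class 3 semaphorins, Sema3c and Sema3e led in ASPCs. Sema3c (ENSMUSG00000028780, chr5:17574816-17730268 in GRCm38.p6, the build of all coordinates here), a secreted ligand that signals through neuropilins with plexins such as Plxnd1, had 368 UMIs and 483 CPM in the ASPCs of the WT-labelled library, and 1966 UMIs and 591 CPM in those of the KO-labelled library. Adipocytes came next with 117 and 152 CPM. The ASPC level was therefore 4.12 times the adipocyte level (interval 3.48 to 4.88) in the WT-labelled library and 3.90 times (3.63 to 4.18) in the KO-labelled library. In adipocytes Sema3c was above what myeloid nuclei and lymphocytes showed, which was 22.2 and 12.1 CPM in the WT-labelled library and 13.3 and 9.14 CPM in the KO-labelled library. Sema3e (ENSMUSG00000063531, chr5:14025276-14256689), which can bind Plxnd1 without a neuropilin, had 39.4 CPM (30 UMIs) in ASPCs of the WT-labelled library and 402 CPM (1337 UMIs) in those of the KO-labelled library. No other class of at least 50 nuclei passed 2.09 CPM in the first library or 8.16 CPM in the second, and 44 mural nuclei of the KO-labelled library held 78.5 CPM (11 UMIs). With 18.9 and 49.2 times the next class, Sema3e had the widest lead of the 5 genes led by ASPCs.

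Sema3f and Sema3g, both secreted ligands, led in endothelial nuclei. Sema3g (ENSMUSG00000021904, chr14:31217873-31230352) had 22 UMIs (132 CPM) in the endothelial nuclei of the WT-labelled library and 35 UMIs (143 CPM) in those of the KO-labelled library. The next class stood at 4.10 CPM (adipocytes) and 0.380 CPM (myeloid nuclei). The endothelial levels of Sema3g in the 2 libraries had a ratio of 1.08 (interval 0.618 to 1.94). Sema3f had 174 CPM (29 UMIs) and 49.0 CPM (12 UMIs) in endothelial nuclei, and the next class stood at 28.1 and 3.78 CPM. Sema3a and Sema3d led in endothelial nuclei of the WT-labelled library (240 and 65.9 CPM) and in ASPCs of the KO-labelled library (77.8 and 64.9 CPM), although counting error did not settle the place of Sema3d in either. Sema3b led in lymphoid stroma of the WT-labelled library (45.6 CPM), not separated by counting error from ASPCs (36.8 CPM). In the KO-labelled library it led in ASPCs (26.4 CPM).

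Among the membrane-bound class 4 semaphorins, Sema4d, the lymphocyte ligand also known as CD100, led in lymphocytes with 96.8 CPM (232 UMIs) in the WT-labelled library and 174 CPM (38 UMIs) in the KO-labelled library. Myeloid nuclei followed with 49.1 and 41.8 CPM. Sema4a, which acts on T cells, led in myeloid nuclei with 146 CPM (92 UMIs) and 177 CPM (466 UMIs), and lymphocytes followed with 68.0 and 91.4 CPM. With at least 1000 detected genes per nucleus, lymphocytes led for Sema4a in the WT-labelled library. Sema4b led in lymphocytes at 123 and 45.7 CPM, but its lead over adipocytes in the KO-labelled library was within counting error (1.53 times, interval 0.726 to 2.87), and adipocytes held 258 of its 388 UMIs there. Sema4c, a ligand of Plxnb2, led in endothelial nuclei at 108 and 36.7 CPM.

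Of the transmembrane class 5 and 6 semaphorins, Sema6a, a ligand of Plxna2 and Plxna4, had the clearest place. It had 62 UMIs and 371 CPM in endothelial nuclei of the WT-labelled library and 213 UMIs and 869 CPM in those of the KO-labelled library. The lead over the next class was 4.60 times (interval 2.81 to 7.78) and 17.2 times (13.8 to 21.5). Sema7a, which is anchored in the membrane by a lipid and binds Plxnc1, also led in endothelial nuclei with 71.9 CPM (12 UMIs) and 131 CPM (32 UMIs). Sema6d led in myeloid nuclei with 112 and 126 CPM, a lead within counting error in the WT-labelled library, where a cluster of 92 nuclei that met no marker list held 154 CPM (35 UMIs). Sema6b stood at 41.9 and 57.1 CPM in endothelial nuclei and at 32.3 and 31.8 CPM in adipocytes, which counting error did not separate in either library. Sema5a, a transmembrane ligand with thrombospondin repeats, led in lymphoid stroma of the WT-labelled library (144 CPM) and in adipocytes of the KO-labelled library (121 CPM), both beyond counting error among classes of at least 50 nuclei. The 44 mural nuclei of the KO-labelled library lay above that, at 421 CPM (59 UMIs, interval 320 to 543). Sema6c had 21.0 CPM in ASPCs of the WT-labelled library and led in the myocytes of the KO-labelled library, at 110 CPM (29 UMIs).

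Slit2 and Slit3, secreted ligands of Robo receptors, led in ASPCs of both libraries among classes of at least 50 nuclei. Slit3 (ENSMUSG00000056427, chr11:35121456-35708507) had 263 UMIs (345 CPM) in ASPCs of the WT-labelled library and 8755 UMIs (2630 CPM) in those of the KO-labelled library. Adipocytes followed with 124 UMIs (63.5 CPM) and 6190 UMIs (715 CPM), and the 44 mural nuclei of the KO-labelled library held 2500 CPM (351 UMIs). The lead of ASPCs was 5.44 times (interval 4.38 to 6.79) and 3.68 times (3.56 to 3.80). Slit3 stood at 7.92 CPM in myeloid nuclei of the WT-labelled library and 11.4 CPM in those of the KO-labelled library, so adipocytes lay well above the level in immune nuclei in both. When each nucleus was thinned to 1000 UMIs, which left out 10 and 5 adipocytes, 4.66% and 46.0% of adipocytes held a Slit3 UMI, against 0.787% and 1.69% of myeloid nuclei (76 and 48 left out). Without thinning the adipocyte shares were 22.0% and 87.0% at median depths of 3651.5 and 7852 UMIs, and the myeloid shares 1.52% and 3.56% at 1447.5 and 2849 UMIs. Slit2 had 27.6 CPM (21 UMIs) and 82.3 CPM (274 UMIs) in ASPCs, with adipocytes next at 6.66 and 9.94 CPM. Slit1 was rare, with 7 and 46 UMIs in all, and 42 of the 46 came from myeloid nuclei.

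Netrin-1 (Ntn1), a secreted laminin-related ligand, led in ASPCs with 57.8 CPM (44 UMIs) and 154 CPM (513 UMIs). In the WT-labelled library its lead over endothelial nuclei (53.9 CPM) was within counting error, and in the KO-labelled library it was 3.15 times (interval 1.79 to 6.13). Ntn4, a netrin of basement membranes, led in lymphoid stroma of the WT-labelled library at 56.1 CPM and in ASPCs of the KO-labelled library at 88.9 CPM. The first lead, over ASPCs at 27.6 CPM, was within counting error (2.04 times, interval 0.993 to 4.09). With at least 1000 detected genes per nucleus, ASPCs led for Ntn4 in both libraries. In the KO-labelled library, 44 mural nuclei (cells of the vessel wall) held Ntn4 at 307 CPM (43 UMIs, interval 222 to 413), above the ASPC level.

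Among the receptors, Robo4 (ENSMUSG00000032125, chr9:37401902-37414023), the Robo family member of endothelium, had most of its UMIs in endothelial nuclei. It had 28 UMIs and 168 CPM there in the WT-labelled library and 51 UMIs and 208 CPM in the KO-labelled library. The next class stood at 2.63 and 1.14 CPM. Unc5b, a netrin receptor of endothelium, had 53.9 CPM (9 UMIs) and 32.6 CPM (8 UMIs) in endothelial nuclei, 5.12 times (interval 1.28 to 29.4) and 4.72 times (1.83 to 10.9) the next class of at least 50 nuclei, and mural nuclei of the KO-labelled library also held 8 Unc5b UMIs (57.1 CPM, interval 24.6 to 112). Plxna4 had 77.8 CPM (13 UMIs) and 392 CPM (96 UMIs) in endothelial nuclei and followed in myeloid nuclei at 19.0 and 97.2 CPM. The order of endothelial before myeloid was therefore the same for Plxna4 in both libraries, with ratios of 4.10 (interval 1.72 to 9.82) and 4.03 (3.15 to 5.11). Plxna4, Ntn4, Sema3b, Sema6d, Unc5a and Unc5c overlap other annotated genes, and reads of the overlap may not have been told apart.

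Plxna2, a receptor of Sema6a, had 120 CPM in endothelial nuclei and 92.2 CPM in adipocytes of the WT-labelled library, which counting error did not separate, and 608 and 141 CPM in the KO-labelled library. Plxnd1, the Sema3e receptor, was spread more widely. In the WT-labelled library it stood at 161 CPM in lymphoid stroma, 154 in myeloid nuclei, 114 in endothelial nuclei and 73.5 in ASPCs, and in the KO-labelled library at 155 CPM in endothelial nuclei, 115 in myeloid nuclei, 47.0 in adipocytes and 12.6 in ASPCs. Plxnb2, a receptor of Sema4 ligands, came from lymphoid stroma (123 CPM) and myeloid nuclei (80.8 CPM) in the WT-labelled library and from myeloid nuclei (68.8 CPM) in the KO-labelled library. Plxna1 stood at 80.8 CPM in myeloid nuclei and 55.1 CPM in ASPCs of the WT-labelled library, and at 27.3 and 32.4 CPM in those of the KO-labelled library, an order that counting error did not settle in either. Plxnc1, the Sema7a receptor, had 54.2 CPM in lymphocytes and 52.6 CPM in lymphoid stroma of the WT-labelled library, and 137 CPM in myeloid nuclei and 123 CPM in lymphocytes of the KO-labelled library, and counting error separated neither pair. A cluster that met no marker list held more Plxnc1 than any of these, at 286 CPM (65 UMIs in 92 nuclei) and 1420 CPM (34 UMIs in 9 nuclei). Plxna3, a receptor of Sema3f, was rare, with 32 and 67 UMIs in all and at most 10.5 and 4.94 CPM in any class of at least 50 nuclei.

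Robo1, a Slit receptor, had 14 UMIs (18.4 CPM) in ASPCs of the WT-labelled library, where lymphoid stroma led at 56.1 CPM, not separated by counting error from endothelial nuclei at 41.9 CPM. In the KO-labelled library it had 800 UMIs (240 CPM) in ASPCs, and endothelial nuclei were the next class of at least 50 nuclei at 20.4 CPM. The 44 mural nuclei stood level with ASPCs, at 250 CPM (35 UMIs, interval 174 to 347). Robo2 was led by lymphoid stroma at 147 CPM (42 of 57 UMIs), and the KO-labelled library, which had no such nuclei, held 11 Robo2 UMIs. Unc5c, a netrin receptor, had 38 of its 51 UMIs in lymphoid stroma of the WT-labelled library, at 133 CPM, and in the KO-labelled library it led in myocytes at 18.9 CPM (5 UMIs), with 49 of its 65 UMIs in adipocytes. Unc5a led in adipocytes at 16.4 and 17.8 CPM, a lead within counting error in both libraries. Lymphoid stroma led for 8 of the 33 genes in the WT-labelled library, where 13.1% of all genes led there. These 8 leads depended on the clustering: after anchor integration of the libraries all 8 moved to the class named mural, and with at least 1000 genes per nucleus none remained in lymphoid stroma.

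Windows at the starts of 4 genes are shown, 2 whose endothelial lead and 2 whose ASPC lead exceeded counting error in both libraries. Sequences are from RefSeq (GRCm38.p6), which matched 35 of the 43 genes, and each runs 5′ to 3′ on the plus strand over the 250 bases before a transcript start listed there. For Robo4 that start lies inside the gene span given above, so its window and its match overlap the annotated gene. Capitals mark AGGAAG or its reverse complement CTTCCT, a core that ETS transcription factors of endothelium and other cells can bind. Robo4 lies at chr9:37401722-37401971, Sema3g at chr14:31217623-31217872, Sema3c at chr5:17574566-17574815 and Slit3 at chr11:35121206-35121455.
Robo4: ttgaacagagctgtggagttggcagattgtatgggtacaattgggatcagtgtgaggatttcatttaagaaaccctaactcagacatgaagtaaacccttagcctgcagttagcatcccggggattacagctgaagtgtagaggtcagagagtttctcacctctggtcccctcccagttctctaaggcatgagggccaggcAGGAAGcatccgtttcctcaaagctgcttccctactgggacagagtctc
Sema3g: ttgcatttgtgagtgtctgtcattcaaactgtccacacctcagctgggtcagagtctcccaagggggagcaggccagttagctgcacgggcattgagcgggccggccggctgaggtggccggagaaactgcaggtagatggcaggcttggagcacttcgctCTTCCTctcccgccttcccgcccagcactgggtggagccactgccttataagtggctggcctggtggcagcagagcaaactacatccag
Sema3c: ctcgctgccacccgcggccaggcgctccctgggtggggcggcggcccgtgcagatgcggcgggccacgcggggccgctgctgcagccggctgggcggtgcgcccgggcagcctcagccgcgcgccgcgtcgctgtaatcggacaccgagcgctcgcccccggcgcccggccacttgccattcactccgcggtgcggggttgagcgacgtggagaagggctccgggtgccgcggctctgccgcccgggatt
Slit3: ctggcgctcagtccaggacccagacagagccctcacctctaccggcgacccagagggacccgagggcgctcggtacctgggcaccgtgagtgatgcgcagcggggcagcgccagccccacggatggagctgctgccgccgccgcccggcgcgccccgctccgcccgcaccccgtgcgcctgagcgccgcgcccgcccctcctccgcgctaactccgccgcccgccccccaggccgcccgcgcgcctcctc
Robo4 and Sema3g held 1 match each and Sema3c and Slit3 held 0. Of the 7 endothelial-led genes with an entry, 3 held a match in at least 1 of their windows (Robo4, Sema3g and Sema6b), and of the 4 ASPC-led genes with an entry 1 did (Sema3e). A match was held by 32.3% of all genes with an entry, beside which these few genes are too small a set to read. The GC content was 49.6% for Robo4, 60.4% for Sema3g, 78.4% for Sema3c and 78.8% for Slit3, against a median of 52.4% over all 32851 windows.

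Ligands and receptors were then read side by side for 30 pairs taken from general knowledge. Both genes reached 20 UMIs in each library in 22 pairs, and in 5 of these both the ligand and the receptor kept their leading class. Among all genes taken singly, 46.3% had the same leading class, so a share of pairs is lower by its making. With no such share at hand for pairs of all genes, the 5 are listed and not read as many or few. Sema6a with Plxna2, Sema6a with Plxna4 and Sema6b with Plxna4 led in endothelial nuclei on both sides, so ligand and receptor RNA had their highest levels in 1 class. Ntn1 with Unc5b and Ntn1 with Unc5a were split, with the ligand in ASPCs and the receptor in endothelial nuclei or adipocytes. Only the pair of Sema6a and Plxna4 had both leads beyond counting error in both libraries. The pair of Sema3e and Plxnd1 had its ligand in ASPCs of both libraries, with the receptor led by lymphoid stroma in the WT-labelled library and by endothelial nuclei in the KO-labelled library. Myeloid nuclei came next for Plxnd1 in both, and counting error settled neither lead (1.05 times, interval 0.723 to 1.51, and 1.35 times, 0.938 to 1.9). Slit3 led in ASPCs of both libraries, and its receptor Robo1 led in lymphoid stroma and then in ASPCs. With at least 1000 detected genes per nucleus, Plxna2 and Sema6b led in adipocytes of the WT-labelled library and Unc5a in lymphocytes of the KO-labelled library. By leading class, whatever the UMIs left, 2 of the 5 pairs then remained, Sema6a with Plxna4 and Ntn1 with Unc5b. Without doublet removal 4 of the 5 remained, as Unc5a again led in lymphocytes. RNA in nuclei does not show that a protein was made or that a pair met.

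To ask how the 2 libraries differed within a class, CPM was compared for genes with at least 50 UMIs over both libraries in that class, and a ratio (labelled KO over labelled WT) of at least 2 or at most 0.5 was counted. In adipocytes 4 of 16 genes were at least 2 times higher and 2 lower, where 25.9% and 17.6% of all genes were. In ASPCs 9 of 20 were higher and 3 lower (25.1% and 8.64% of all genes). In myeloid nuclei 2 of 10 were higher and 2 lower (24.1% and 13%), and in endothelial nuclei 4 of 7 were higher and 0 lower (32.5% and 15.7%). These ratios moved with gene length. In adipocytes the median log2 ratio was -0.74 for genes under 10 kb and 2.34 for genes of at least 300 kb, with the same order in the other 3 classes, and 21 of the 43 guidance genes span more than 100 kb. Ratios are therefore also given centred on the median of the 201 genes nearest in length. The longest genes all share the median of the 201 longest, so any further rise with length among them was not removed. Robo1, Slit3 and Sema6d in adipocytes and ASPCs were among these. So were Plxna4 and Sema6d in myeloid nuclei, and Plxna4 and Slit3 in endothelial nuclei, where only 132 of the genes compared reached 300 kb. After centring, 1 gene was at least 2 times higher and 6 lower in adipocytes (19.4% and 12.4% of all genes), 2 and 6 in ASPCs (14.8% and 9.59%), 0 and 4 in myeloid nuclei (16.2% and 11.4%) and 1 and 0 in endothelial nuclei (20.5% and 13.5%). Leaving mitochondrial genes and Malat1 out of the totals moved the median log2 ratio of all genes from -0.01 to -0.26 in adipocytes, 0.14 to -0.13 in ASPCs, 0.07 to -0.13 in myeloid nuclei and 0.28 to 0.13 in endothelial nuclei, where TMM scaling gave 0.08. The median of the guidance genes as counted was 0.49 in adipocytes, 0.45 in ASPCs, -0.04 in myeloid nuclei and 1.23 in endothelial nuclei, and -0.66, -0.47, -0.67 and 0.73 after centring on length.

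**Figure D2:**
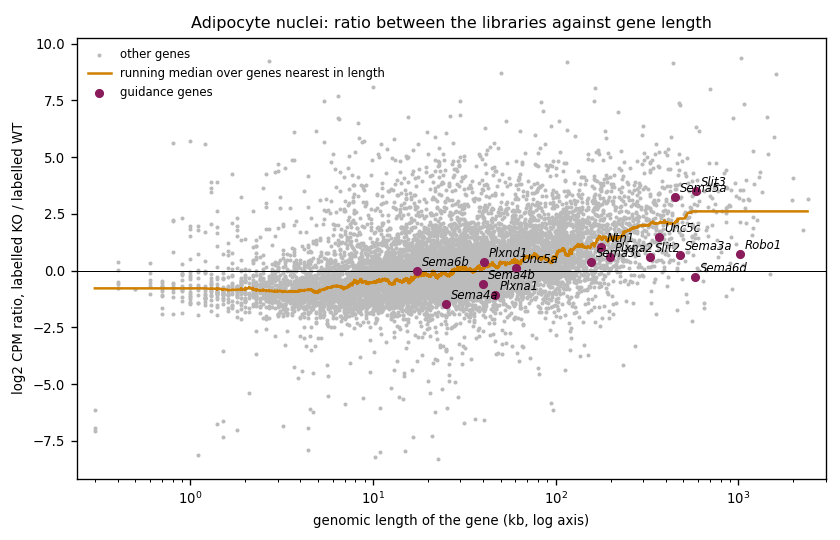
The log2 CPM ratio (labelled KO over labelled WT) in adipocytes is plotted against the genomic length of each gene in kb on a log axis, with guidance genes in purple, other genes in grey and the running median in orange. The median climbs from below 0 for short genes to above 2 for the longest, Slit3 and Sema5a lie above it, and Sema6d, Robo1 and Slit2 lie below it.

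As counted, the 2 highest ratios in adipocytes were those of ligands. Slit3 was 11.3 times higher in the KO-labelled library (interval 9.43 to 13.6) and 1.85 times higher (1.55 to 2.23) than genes of like length. Sema5a, with 25 UMIs (12.8 CPM) and 1046 UMIs (121 CPM), was 9.44 times higher (6.36 to 14.7) and 2.16 times higher after centring (1.45 to 3.35). These 2 genes were higher under both readings. Sema4a was lower in the KO-labelled library at 0.358 times (0.266 to 0.485) and 0.397 times after centring, with 38.4 and 13.8 CPM. Plxna1 was lower at 0.480 times (0.325 to 0.722), and 0.412 times after centring. Ntn1 (2.03 times) and Unc5c (2.76 times) were higher as counted, and after centring both intervals held 1, at 0.771 (0.434 to 1.49) and 0.637 times (0.234 to 2.43). Sema3c (1.29 times) and Plxna2 (1.53 times) were higher as counted and lower after centring, at 0.627 (0.544 to 0.725) and 0.596 times (0.509 to 0.701). Sema6d, a gene of 578 kb, showed little difference as counted (0.833, interval 0.635 to 1.11) and stood at 0.137 times genes of like length. Robo1 (0.270), Sema3a (0.334) and Slit2 (0.366) were also at most 0.5 times after centring, with ratios of 1.64, 1.64 and 1.49 as counted whose intervals held 1. The 14 lymphocyte markers all had UMIs in adipocytes of both libraries and summed to 346 CPM (labelled WT) and 44.5 CPM (labelled KO), and the 12 myeloid markers to 725 and 400 CPM. Their part in the Sema4a values was not tested.

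In ASPCs Sema3e was 10.2 times higher in the KO-labelled library (7.11 to 15.2) and 3.08 times higher after centring (2.15 to 4.58). Robo1, a gene of 1020 kb, was 13.1 times higher (7.75 to 24.0) and 2.16 times after centring (1.28 to 3.96). Slit3 was 7.62 times higher (6.74 to 8.64) and 1.26 times after centring (1.11 to 1.43), Ntn4 was 3.23 and 1.74 times higher, and Plxna2 was 5.22 and 1.80 times higher. Sema3a was 7.41 times higher as counted, and after centring its interval held 1 (1.30, 0.647 to 3.03). Slit2 (2.99) and Sema5a (2.63) were higher as counted and lower after centring, at 0.600 (0.385 to 0.985) and 0.489 times (0.283 to 0.914), and Ntn1 (2.67) stood at 0.838 times with an interval that held 1 (0.615 to 1.17). In the other direction, Plxnd1 was 0.172 times as high in the KO-labelled library (0.112 to 0.261) and 0.149 times after centring, with 56 UMIs (73.5 CPM) and 42 UMIs (12.6 CPM). In adipocytes Plxnd1 stood at 35.8 and 47.0 CPM, a ratio of 1.31 (1.02 to 1.72) and 1.21 after centring (0.934 to 1.58). Sema4b (0.424) and Sema4c (0.445) were also lower in ASPCs as counted, at 0.370 (0.227 to 0.615) and 0.582 times after centring, where the interval of Sema4c held 1 (0.321 to 1.09). After centring, Plxna1 (0.455), Sema3d (0.395) and Sema6d (0.182) were at most 0.5 times as well, against 0.588, 1.15 and 1.10 as counted. In ASPCs the lymphocyte markers summed to 490 and 9.31 CPM and the myeloid markers to 873 and 379 CPM, and their part in the lower values of Plxnd1, Sema4b and Sema4c was not tested.

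In myeloid nuclei Plxna4 was 5.12 times higher (2.88 to 10.0) and Plxnc1 3.21 times higher (2.17 to 4.93) in the KO-labelled library, and after centring both intervals held 1, at 1.03 and 1.27 times. Plxna1 (0.338) and Sema4b (0.352) were lower under both readings, at 0.275 and 0.338 times after centring. Sema4d (0.438) and Sema6d (0.224) were at most 0.5 times after centring only. In myeloid nuclei the lymphocyte markers summed to 1050 CPM (labelled WT) and 424 CPM (labelled KO) and the myeloid markers to 8460 and 15300 CPM, and their part in these ratios was not tested. In endothelial nuclei Slit3 (3 and 75 UMIs) was 17.0 times higher (5.61 to 84.5) and 3.62 times after centring (1.19 to 18.0). Its 3 UMIs in the WT-labelled library limit this value. Plxna2 was 5.08 times higher, and 2.00 times after centring (1.25 to 3.36). Plxna4 (5.03) and Sema6a (2.34) were higher as counted, and after centring both intervals held 1, at 1.07 (0.597 to 2.08) and 1.28 times (0.960 to 1.73). The 10 adipocyte markers summed to 982 CPM in endothelial nuclei of the WT-labelled library and 3060 CPM in those of the KO-labelled library. Lymphocyte markers summed there to 934 and 73.5 CPM, lymphoid stroma markers to 1500 and 249 CPM and myeloid markers to 1610 and 853 CPM. The part of these markers in the endothelial ratios, Slit3 among them, was not tested. Robo4 and Sema3g, both short genes, had ratios of 1.24 and 1.08 whose intervals held 1, and after centring Robo4 stood at 1.86 (1.15 to 3.06) and Sema3g at 1.64 (0.934 to 2.93).

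**Figure D3:**
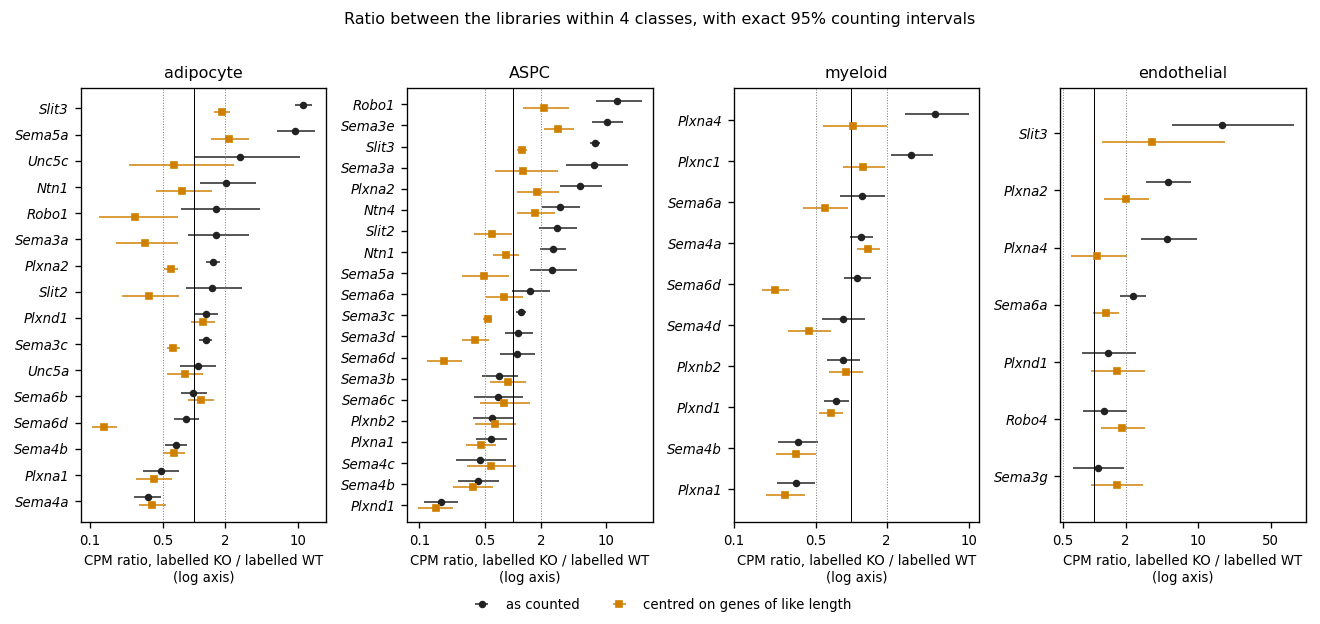
Each point is the CPM ratio of 1 gene between the libraries (labelled KO over labelled WT, log axis) within a class, with its exact 95% interval, black as counted and orange centred on genes of like length, and dotted lines at 0.5 and 2. Slit3 and Sema5a in adipocytes and Sema3e and Robo1 in ASPCs lie above 1 in both colours, Plxnd1 in ASPCs lies below 1 in both, and Sema3c, Slit2 and Ntn1 move across 1.

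The ASPC class was divided further, since the 2 libraries could hold different kinds of ASPCs. Interstitial progenitor-like nuclei (markers such as Dpp4 and Pi16) numbered 122 in the WT-labelled library and 390 in the KO-labelled library, committed preadipocyte-like nuclei (Pparg, Col15a1) 157 and 267, and regulatory-type-like nuclei (F3, Gdf10) 21 and 115. Sema3c and Sema3e were highest in the interstitial progenitor-like nuclei of both libraries. There Sema3c had 1500 CPM (269 UMIs) and 1160 CPM (1488 UMIs), against 114 and 101 CPM in committed preadipocyte-like and 472 and 443 CPM in regulatory-type-like nuclei. Sema3e had 134 and 947 CPM in the interstitial progenitor-like nuclei, against 6.11 and 18.9 CPM and 32.9 and 122 CPM. The order of the 3 kinds of nuclei was the same in both libraries for these 2 ligands, although the lower levels of Sema3e in the WT-labelled library rest on 3 UMIs each.

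Other ligands had other places. Ntn1 was highest in the regulatory-type-like nuclei of the WT-labelled library (230 CPM, 21 UMIs), and in the KO-labelled library it stood at 207 CPM there and at 218 CPM in interstitial progenitor-like nuclei. Ntn4 was lowest in committed preadipocyte-like nuclei of both libraries, at 44.5 and 170 CPM in interstitial progenitor-like and 110 and 84.9 CPM in regulatory-type-like nuclei. Slit2 in the KO-labelled library was highest in the committed preadipocyte-like nuclei, at 166 CPM against 43.8 in interstitial progenitor-like and 17.7 in regulatory-type-like nuclei. In the WT-labelled library it had 18 UMIs (36.7 CPM) in committed preadipocyte-like, 3 UMIs (32.9 CPM) in regulatory-type-like and 0 in interstitial progenitor-like nuclei, and the first 2 lay within counting error of each other. The 0 Slit2 UMIs allow up to 3. Plxnd1 had 55 of its 56 ASPC UMIs of the WT-labelled library in the committed preadipocyte-like nuclei, whose 10 leading genes in that library included the immune genes F13a1 and Rgs1 and none of the preadipocyte markers, although 4 of those passed. In these nuclei the myeloid markers summed to 1010 CPM and the lymphocyte markers to 540 CPM, against 384 and 11.5 CPM in their counterparts of the KO-labelled library. Their part in the Plxnd1 values was not tested. Slit3 was spread over all 3 kinds, from 285 to 515 CPM in the WT-labelled library and from 2020 to 2890 CPM in the KO-labelled library.

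The differences between the libraries were then read within 1 kind of nuclei. Sema3e in interstitial progenitor-like nuclei was 7.09 times higher in the KO-labelled library (4.74 to 11.1), and 2.20 times higher after centring on length (1.47 to 3.44). Robo1 was 20.4 times higher in committed preadipocyte-like nuclei (5 and 254 UMIs), and 3.15 times after centring (1.33 to 9.79). In interstitial progenitor-like nuclei (7 and 464 UMIs) Robo1 was 9.31 times higher as counted, and in regulatory-type-like nuclei (2 and 73 UMIs) 4.22 times, and after centring both intervals held 1, at 1.51 (0.725 to 3.77) and 0.890 times (0.238 to 7.49). Slit3 was 6.64, 10.1 and 3.92 times higher in interstitial progenitor-like, committed preadipocyte-like and regulatory-type-like nuclei. After centring it was 1.56 times higher in committed preadipocyte-like nuclei (1.32 to 1.86), and the intervals held 1 in the other 2 kinds, at 1.07 (0.856 to 1.37) and 0.827 times (0.619 to 1.13). Plxnd1 in committed preadipocyte-like nuclei had 55 UMIs (112 CPM) and 30 UMIs (24.6 CPM), 0.219 times (0.136 to 0.348) and 0.195 times after centring (0.121 to 0.309). Sema3c differed from the class as a whole. Over all ASPCs it was 1.22 times as high in the KO-labelled library (1.09 to 1.37), and within interstitial progenitor-like nuclei it was 0.777 times as high (0.682 to 0.888), 0.883 times (0.639 to 1.23) in committed preadipocyte-like and 0.940 times (0.684 to 1.32) in regulatory-type-like nuclei, at 0.299, 0.341 and 0.409 times after centring. Sema3d in regulatory-type-like nuclei had 18 UMIs (197 CPM) and 40 UMIs (50.7 CPM), 0.257 times (0.144 to 0.476) and 0.0866 times after centring. Also past 2 times in interstitial progenitor-like nuclei were Sema3a (1 and 114 UMIs, 16.0 times, interval 2.82 to 638) and Plxna2 (5.19 times), both higher, and Sema3b (0.297) and Plxna1 (0.384), both lower, at 2.59, 1.84, 0.407 and 0.306 times after centring. Ntn4 (3.83 times) and Ntn1 (3.56 times) were higher there too as counted, at 1.94 and 1.29 times after centring. Of these 6 genes, the centred intervals of Sema3a (0.456 to 103), Plxna2 (0.919 to 4.29), Ntn4 (0.968 to 4.55) and Ntn1 (0.710 to 2.61) held 1. Lymphocyte markers in interstitial progenitor-like nuclei summed to 490 CPM (labelled WT) and 10.9 CPM (labelled KO), and myeloid markers to 801 and 419 CPM. Their part in the lower values of Sema3b and Plxna1 was not tested. In regulatory-type-like nuclei Ntn4 and Ntn1 stood at 0.774 and 0.897 times with intervals that held 1, and at 0.447 (0.228 to 0.974) and 0.398 times (0.252 to 0.660) after centring. Slit2 with its 0 and 56 UMIs was at least 2.62-fold higher in interstitial progenitor-like nuclei as counted, against the floor of 3 UMIs. After centring the bound was 0.571-fold, which leaves the direction unsettled. In committed preadipocyte-like nuclei Sema3a (7.18 times), Slit2 (4.54), Sema5a (3.09), Plxna2 (2.55) and Ntn1 (2.31) were also higher as counted and Sema4b (0.434) lower, at 1.11, 0.895, 0.503, 0.861, 0.849 and 0.377 times after centring. The centred intervals of Sema5a (0.281 to 0.977) and Sema4b (0.210 to 0.677) lay below 1 and those of the other 4 held 1. Sema3e in regulatory-type-like nuclei was 3.70 times higher as counted (3 and 96 UMIs), and after centring its interval held 1 (1.13, 0.374 to 5.56). In counts, 8 of 12 genes were at least 2 times higher and 2 lower in interstitial progenitor-like nuclei, where 31.7% and 9.88% of all genes were, and after centring 2 and 4 (18.7% and 10.9%). In committed preadipocyte-like nuclei 7 of 13 were higher and 2 lower (28.5% and 8.84%), and after centring 1 and 4 (16.3% and 11.3%). In regulatory-type-like nuclei 3 of 7 were higher and 1 lower (31.2% and 6.57%), and after centring 0 and 4 (15.8% and 9.48%).

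**Figure D4:**
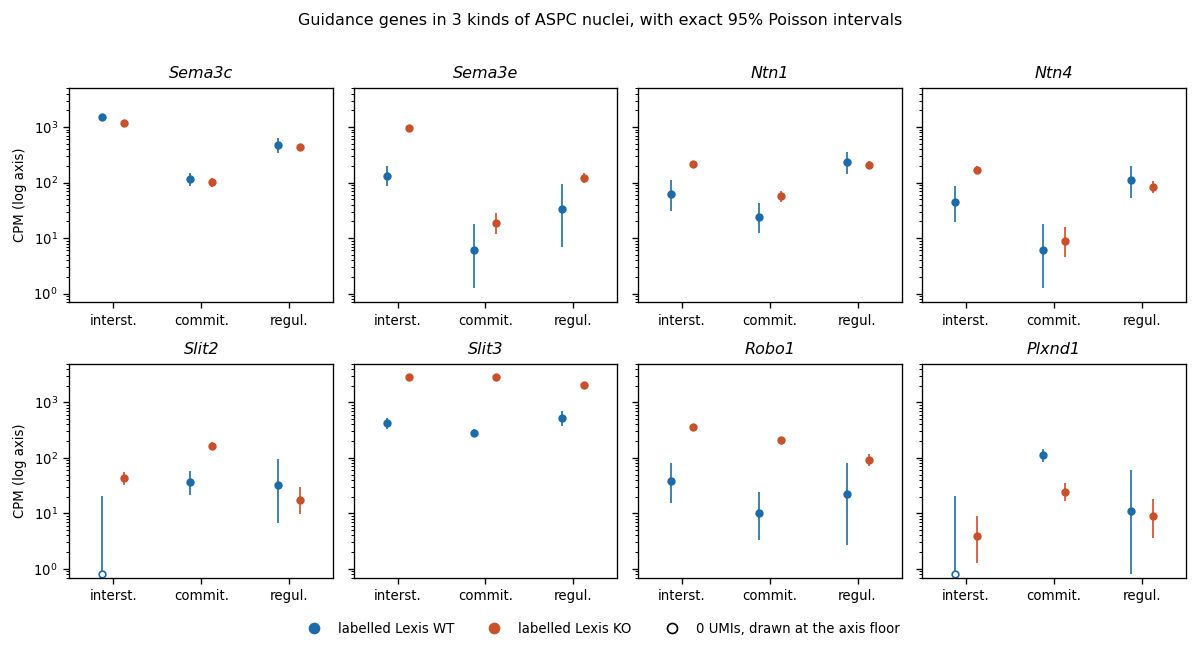
CPM on a log axis is given for 8 genes in interstitial progenitor-like, committed preadipocyte-like and regulatory-type-like ASPC nuclei, in blue for the WT-labelled library and red for Lexis KO, with exact 95% Poisson intervals and open circles for 0 UMIs. Sema3c and Sema3e are higher in interstitial than in committed nuclei of both libraries, Slit2 in the KO-labelled library and Plxnd1 in both are highest in committed nuclei, and levels are as counted, without the centring on gene length that turns the ratios of Slit2, Ntn1 and Sema3c over all ASPCs to below 1.

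The endothelial nuclei also held 2 kinds. In the WT-labelled library, 37 of the 92 nuclei formed a subcluster with 4 of the 5 lymphatic markers (Prox1, Mmrn1, Reln and Flt4), and 54 formed another. The 1 nucleus left (12246 UMIs) was in neither group and held 5 Sema3g, 5 Sema6a, 4 Robo4 and 2 Sema3f UMIs. In the KO-labelled library, 114 of the 122 nuclei formed 1 subcluster in which the 5 lymphatic markers summed to 196 CPM. They summed to 972 CPM in the 54 nuclei of the WT-labelled library. The other 8 nuclei of the KO-labelled library (10894 UMIs in all) fell in 2 subclusters too small to be named, and they held UMIs of all 5 lymphatic markers, at 4680 CPM in sum against 2550 CPM in the lymphatic-like nuclei of the WT-labelled library. Sema3a, a repellent ligand of neuropilin-1, had 38 UMIs (601 CPM, interval 426 to 826) in the lymphatic-like nuclei, 2 UMIs (21.8 CPM) in the 54 other nuclei and 0 UMIs in the 114 nuclei of the KO-labelled library, which allows up to 3. Sema3d had 11, 0 and 1 UMIs in the same 3 groups. The 8 small-subcluster nuclei of the KO-labelled library held 3 Sema3a UMIs (275 CPM, interval 56.8 to 805) and 7 Sema3d UMIs (643 CPM, interval 258 to 1320). Most UMIs of both genes in endothelial nuclei thus lay in nuclei with lymphatic markers in either library. Sema3g had the opposite place, with 0 UMIs in the lymphatic-like nuclei, 17 UMIs (186 CPM) in the other nuclei of the WT-labelled library and 35 UMIs (149 CPM) in those of the KO-labelled library. Within the WT-labelled library, Sema3f was higher in the lymphatic-like nuclei (269 CPM, 17 UMIs) than in the 54 others (109 CPM, 10 UMIs). Against all other endothelial nuclei of that library, the 1 nucleus left included, the lymphatic-like level was 2.33 times as high (interval 1.05 to 5.34). Robo4 did not differ beyond counting error in that library, at 127 and 175 CPM. The 8 small-subcluster nuclei of the KO-labelled library held 0 Sema3f UMIs (interval 0 to 339 CPM), and the 114 others held 12 (51.3 CPM). Without the lymphatic-like nuclei, Sema6a was 3.36 times higher in the KO-labelled library (2.19 to 5.36) and 1.79 times after centring on length (1.17 to 2.85). Plxna2 (4.39 times), Slit3 (9.78 times, 3 and 75 UMIs) and Plxna4 (4.13 times) were higher as counted. After centring their intervals held 1, at 1.38 (0.782 to 2.65), 1.81 (0.597 to 8.98) and 0.765 times (0.386 to 1.72), whereas over all endothelial nuclei those of Plxna2 and Slit3 had left out 1. Of 7 genes 4 were at least 2 times higher and 0 lower, against 38.4% and 13.3% of all genes, and after centring 0 were higher and 0 lower (21.7% and 13.4%).

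**Figure D5:**
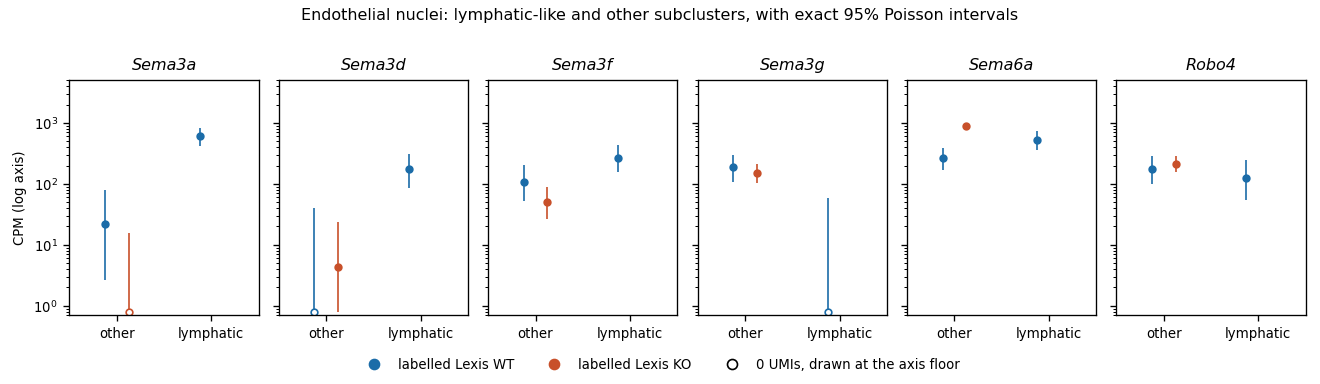
CPM on a log axis is given for 6 genes in the lymphatic-like and the other endothelial nuclei, blue for the WT-labelled library and red for Lexis KO, with exact 95% Poisson intervals and open circles for 0 UMIs. Sema3a and Sema3d are high in the lymphatic-like nuclei and at or near 0 in the others, Sema3g shows the reverse, and the KO-labelled library has no lymphatic-like point because its 8 nuclei with lymphatic markers were too few to be drawn.

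The other genes of these pathways were read from a list of 46 co-receptors, further ligands and effectors, all of which were in the count tables. In adipocytes 32 entered, of which 12 were at least 2 times higher in the KO-labelled library and 3 lower, and 5 and 9 after centring on length, against 25.9% and 17.6% of all genes as counted and 19.4% and 12.4% centred. In ASPCs 35 entered, with 14 higher and 5 lower (25.1% and 8.64%), and 4 and 10 after centring (14.8% and 9.59%). In myeloid nuclei 28 entered, with 11 and 6 (24.1% and 13%), and 4 and 9 after centring (16.2% and 11.4%). In endothelial nuclei 14 entered, with 8 and 0 (32.5% and 15.7%), and 1 and 1 after centring (20.5% and 13.5%). Past 4 times, the effectors Farp1 (14.0 times in adipocytes, 7.92 in ASPCs), Dpysl3 (10.3 and 4.64) and Srgap1 (4.03 and 5.78) were higher in both classes, at 4.12 and 2.04, 6.23 and 2.46, and 1.12 and 1.38 times after centring. The centred interval of Srgap1 in adipocytes held 1 (0.818 to 1.57). Farp1 acts with plexins, Dpysl3 is a collapsin response mediator and Srgap1 acts below Robo receptors. In adipocytes the related Farp2 (6.13 times, 3.34 after centring) and the Unc5 ligand Flrt1 (8.16 times, 5.12 after centring) were also higher, and in ASPCs its relative Flrt2 was (4.38 times, 2.81 after centring; 147 and 644 CPM). Ntng2, a membrane-anchored relative of the netrins, had 1 and 432 UMIs in adipocytes, a ratio of 97.5 with a counting interval of 17.4 to 3860 (81.1 after centring). In ASPCs it had 0 and 114 UMIs, at least 8.70-fold higher in the KO-labelled library against the floor of 3 UMIs in that class (6.63-fold after centring). In myeloid nuclei, named after their values were seen, Ntng2 (2 and 181 UMIs) was 21.7 times higher (interval 5.92 to 181) and 16.3 times after centring, and Dpysl3 (1 and 89 UMIs) 21.3 times (3.73 to 852) and 10.7 times after centring. Ntng1, the relative of Ntng2, went the other way there, with 49 and 1 UMIs, a ratio of 0.00489 (0.000121 to 0.0286) and 0.00111 after centring. Of the 49 UMIs, 45 lay in 1 subcluster of 77 nuclei (372 CPM, interval 271 to 497) that had no counterpart of at least 20 nuclei in the KO-labelled library, and the 242 nuclei of another myeloid subcluster of the WT-labelled library held 4 (8.28 CPM). The 1 UMI of the KO-labelled library lay in a subcluster of 161 nuclei. Also past 4 times in myeloid nuclei were Srgap3 (7.91 times, 2.46 after centring), Flrt2 (7.23 and 4.44) and Dock1 (6.47 and 1.30), all higher. Mical1 was lower (0.174 and 0.211). The centred interval of Dock1 held 1 (0.947 to 1.83). The netrin receptor Neo1 was 4.33 times higher in adipocytes (21.5 and 93.1 CPM), and 1.97 times after centring. The co-receptors Nrp1 and Nrp2, chosen after their values were seen, stood at 353 and 449 CPM in endothelial nuclei of the WT-labelled library and at 959 and 726 CPM in those of the KO-labelled library. Nrp1 was 2.71 times higher as counted and 1.38 times after centring (1.03 to 1.87), and Nrp2 1.62 times as counted and 0.920 times after centring, with an interval that held 1 (0.699 to 1.22). Elsewhere Nrp2 was lower, at 0.374 times in ASPCs (0.212 after centring), 0.634 in adipocytes (0.389) and 0.922 in myeloid nuclei (0.512). Nrp1 was higher there as counted (1.66, 1.33 and 1.86 times) and lower after centring (0.738, 0.653 and 0.791). The as-counted interval of Nrp2 in myeloid nuclei held 1 (0.780 to 1.10).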

How the data were processed

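The authors deposited a count matrix of UMIs for each library (Cell Ranger and mm10 in the submitters' processing notes, with Cell Ranger 6.1.1 in the file headers and Seurat 4 named for later steps). Each matrix held 5000 barcodes, with 9376351 counts in the WT-labelled library and 19655049 in the KO-labelled library. Whether introns were counted in the same way in both is not given in the sources used here. Barcodes with at least 500 genes and at most 5% mitochondrial UMIs passed (3649 and 2944). Doublets were scored with Scrublet in scanpy 1.11.5. Its automatic threshold marked 0 barcodes of the WT-labelled library, so the highest-scoring 4% (146) were removed there, and 92 in the KO-labelled library. Clusters of the merged nuclei were made in R 4.3.3 by Seurat 5.3.0 (2000 variable genes without the guidance genes, 20 principal components, 20 neighbours, resolution 0.5), and clusters were named where at least 3 listed markers were in at least 5% of nuclei and 2 times higher than in the rest. Names rebuilt in this way may differ from those of the study.

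UMIs were summed per gene, class and library and given as CPM of the class total. Intervals (exact Poisson, conditional binomial, Clopper-Pearson) were computed with scipy 1.17.1 in Python 3.11.15, with a floor of 3 counts. With 1 library per group no test was made. The gene families and the lists were chosen with earlier results of these data known, and the members of each family by symbol alone. Every guidance gene with at least 50 UMIs was named. Those past 2 times as counted were named in each comparison between whole classes, and likewise within ASPC subclusters. Pathway genes were named past 4 times in adipocytes or ASPCs and, after their values were seen, in myeloid nuclei. Gene lengths came from RefSeq (GRCm38.p6) for all 43 genes. The ratio and length steps were tested on simulated data. The simulated lengths were spread evenly on a log scale with a straight trend, unlike the data, so this does not cover the few longest genes. Alternatives were TMM scaling (edgeR 4.0.16), totals without mitochondrial genes and Malat1, length centring, other minimums (1000 genes, 20 or 50 UMIs), resolution 1.0, anchor integration of the libraries, guidance genes among the variable genes and no doublet removal. Matched subclusters, endothelial nuclei without lymphatic-like nuclei and the 5 shared classes were added after seeing the data.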

Additional observations from a re-analysis of the deposited data

Results flagged for a closer look

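These values lie in nuclei outside the comparisons above. The 44 mural nuclei of the KO-labelled library, a class with too few nuclei in either library to be compared, held Sema5a at 421 CPM (59 UMIs) and Ntn4 at 307 CPM (43 UMIs), above every compared class of that library for both genes. A cluster that met no marker list, with Ccl22 and Xcr1 among its leading genes, held Plxnc1 at 286 CPM (65 UMIs, 92 nuclei) in the WT-labelled library and at 1420 CPM (34 UMIs, 9 nuclei) in the KO-labelled library.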

How the results depend on the processing

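No paired analysis was possible because each group has 1 library, and for the same reason no replicate could be left out. Of 33 genes, 20 had the same leading class, and this became 13 of 26 with at least 1000 genes per nucleus and 13 of 23 with at least 50 UMIs per library. Of the 20, 16 kept that class with at least 1000 genes per nucleus (not Plxna2, Sema4a, Sema6b and Unc5a) and 19 without doublet removal (not Unc5a). Some of the 16 no longer reached 20 UMIs in each library, so not all of them are among the 13 of 26. Genes at least 2 times higher in the KO-labelled library numbered 4 of 16 in adipocytes (7 of 21 without doublet removal, 1 of 16 with length centring). In ASPCs they numbered 9 of 20 (2 of 20 with length centring, 3 of 7 in regulatory-type-like nuclei alone). In myeloid nuclei they numbered 2 of 10 (1 with at least 1000 genes per nucleus, 4 without doublet removal, 4 with at least 20 UMIs, 0 of 10 with length centring). In endothelial nuclei they numbered 4 of 7 (1 of 7 with length centring). The shares of all genes for the main, length-centred and subcluster counts are given above. For the other settings no share is given, unless printed here, so those counts, of leading classes too, are not read as many or few. Genes at least 2 times lower numbered 2 of 16 in adipocytes (5 of 21 without doublet removal, 6 of 23 with at least 20 UMIs, 6 of 16 with length centring). In ASPCs they numbered 3 of 20 (5 of 20 without mitochondrial genes and Malat1, 6 with at least 20 UMIs, 6 of 20 with length centring, 1 of 7 in regulatory-type-like nuclei alone). Without mitochondrial genes and Malat1, 16.4% of all ASPC genes were lower, against 8.64% in the main count. Guidance genes at least 2 times lower numbered 2 of 10 in myeloid nuclei (4 of 10 with length centring) and 0 of 7 in endothelial nuclei (3 with at least 20 UMIs). Among ratios above 1 whose interval left out 1, length centring turned the log2 ratio negative in adipocytes for Ntn1 (-0.37), Plxna2 (-0.75), Sema3c (-0.67) and Unc5c (-0.65), and in ASPCs for Ntn1 (-0.26), Sema3c (-0.90), Sema5a (-1.03) and Slit2 (-0.74). Ratios above 1 whose interval held 1 turned negative for Robo1, Sema3a, Slit2 and Unc5a in adipocytes, Sema3d, Sema6a and Sema6d in ASPCs, and Sema6a and Sema6d in myeloid nuclei. Over all genes in adipocytes, 2946 were higher and 2000 lower, against 2465 and 2970 without mitochondrial genes and Malat1. The cause was not tested, except that regulatory-type-like nuclei and the higher minimums leave fewer genes. In adipocytes more genes entered without doublet removal (21) and with at least 20 UMIs (23) than in the main count (16). Depth limits the endothelial values, where the 10 leading genes held 7 to 62 UMIs each in the WT-labelled library.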
